A study of Mus musculus with 12 samples.

Results

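The immunoglobulin heavy chain constant genes of the mouse are Ighm, Ighd, Ighg3, Ighg1, Ighg2b, Ighg2c, Ighe and Igha. They were chosen by name, as the rows of the deposited count table whose Entrez identifier belongs to each symbol, and make up 8 of its 27179 genes. The rule used no measured value, although earlier results of these data were known when the members were chosen. All 8 were found, and 7 passed the filter on low counts. Ighe did not, and its counts are given without a test.

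RNA-seq covered mouse splenic B cells in 12 libraries, 2 biological replicates for each of 6 stages. Every sample came from male C57BL/6 animals, given in the methods of the study as a C57BL/6 Pep3b background, aged 6 to 12 weeks, with no genetic change named for these libraries. Naive B cells received no treatment, while the other stages were cultured with 25 µg/ml lipopolysaccharide (LPS) of Salmonella typhosa. Undivided cells were sorted 3, 10 and 33 h after LPS was added, as CD69+ cells with the highest CellTrace Violet, a dye that is diluted by division. On day 4, CD22+CD138- cells were sorted as expanded B cells and CD22-CD138+ cells as plasmablasts. The naive sort required surface IgM and high IgD, the proteins of Ighm and Ighd, and was made straight from spleen, whereas the cultured cells had first been isolated by magnetic depletion. The day 4 stages came from cultures seeded at a lower cell density than those of 3, 10 and 33 h, so that at the step from 33 h to expanded B cells time, density and sort cannot be told apart. LPS was the only stimulus named, and the labels do not say whether animals were pooled.

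Each constant gene encodes the part of the antibody heavy chain that sets its isotype. Ighm and Ighd lie next to the variable region and are expressed together in resting B cells from a single long transcript that is spliced to either of them. Class switch recombination joins the variable region to a constant gene further along the locus, and this is preceded by sterile germline transcripts of the target gene. Each gene can give a membrane form, used in the B cell receptor, or a secreted form, made in quantity by plasma cells. In the mouse, LPS is known for switching to IgG3 and IgG2b.

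All 8 genes lie on the minus strand of chromosome 12 of GRCm38 (mm10), in the order of the list above. RefSeq places Ighm at chr12:113418826-113422730, Ighd at chr12:113407535-113416324 and Ighg3 at chr12:113357442-113361232. Ighg1 is at chr12:113326541-113330523, Ighg2b at chr12:113304314-113307933 and Ighg2c at chr12:113287389-113288932. Ighe is at chr12:113269263-113273248 and Igha at chr12:113256204-113260236. The length that the deposited table gives to a gene was 1491 bases for Ighm, against 1492 coding bases in GENCODE, and 1007 bases for Ighg2c, against 1222. The Ighg2c difference equals the 215 coding bases used only by its membrane form. For Ighg3 the lengths were 1201 and 1207 bases, and for Ighg2b 1222 and 1225. Counts and shares of Ighg2c may thus cover less of the gene than those of Ighg3 and Ighg2b. For Ighg1 the table gives 1478 bases against 1189 coding bases, and for Ighd 1008 against 943. Levels per length of Ighg1, Ighd and Ighg2c therefore depend on which exons were counted.

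The 4 gamma genes resemble each other in sequence, which bears on how reads were assigned to them. Over the coding sequence of the secreted forms, pairs of gamma genes were 73.5% to 85.6% identical, while all other pairs of the 8 genes were 36.2% to 47.2% identical. Ighg2b and Ighg2c were the most alike pair. The first coding exon, CH1, is 291 bases in each gamma gene and differs between them at 88 positions. Its stretch of the length of a read, 81 bases, with the fewest such positions runs from base 66 to base 146 of the exon and holds 18 of them. It is printed here 5′ to 3′ on the coding strand, from GENCODE M21 transcripts on GRCm38, with capitals at the positions where the 4 genes are not all the same.
Ighg3, chr12:113361087-113361167: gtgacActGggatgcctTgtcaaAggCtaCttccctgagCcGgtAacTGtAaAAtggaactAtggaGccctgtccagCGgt
Ighg1, chr12:113330378-113330458: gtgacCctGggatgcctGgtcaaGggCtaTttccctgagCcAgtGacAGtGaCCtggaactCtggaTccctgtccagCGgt
Ighg2b, chr12:113307788-113307868: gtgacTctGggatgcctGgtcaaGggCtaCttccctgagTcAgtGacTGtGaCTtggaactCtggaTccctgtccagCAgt
Ighg2c, chr12:113288787-113288867: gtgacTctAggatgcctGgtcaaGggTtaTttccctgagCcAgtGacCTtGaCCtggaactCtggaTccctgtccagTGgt
Against Ighg3, this stretch has 12 differences in Ighg1, 12 in Ighg2b and 16 in Ighg2c.

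Across the whole coding sequence of both forms, 8 of the 1144 stretches of 81 bases in Ighg2b and 8 of the 1127 in Ighg3 occur exactly in another of the 8 genes. With up to 3 mismatches allowed, 24.0% of the stretches of Ighg2b, 23.6% of Ighg2c, 8.70% of Ighg3 and 5.42% of Ighg1 have a match in another of the genes. Ighm, Ighd, Ighe and Igha have none at that tolerance, and the fewest mismatches of an Ighm stretch is 18. Low counts of Ighg2c are therefore uncertain where Ighg2b is abundant. The counts are per gene, so membrane and secreted forms, and germline and switched transcripts, cannot be told apart in them.

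Total counts ran from 23026619 to 60585587 per library, and the counts of the 8 genes together from 141754 to 2195016. The heavy constant genes took 0.971% and 0.962% of all counts in the naive libraries, 0.616% and 0.535% in those of 3 h, and 0.725% and 0.778% in those of 10 h. They took 0.815% and 1.02% in the 33 h libraries, 1.98% and 2.38% for expanded B cells and 6.19% and 5.56% for plasmablasts. The share was lowest at 3 h and highest in plasmablasts, and neither stage overlapped another. Variable segments of the heavy and light chains took 0.236% to 0.469% of all counts in the naive, 3 h, 10 h and 33 h libraries, 1.11% and 1.26% for expanded B cells and 5.04% and 5.11% for plasmablasts. Between 2 libraries and 2, an exact two-sided permutation test cannot give a p below 0.333, so shares are given as values, and tests come from the edgeR model across all genes. In bulk RNA, fewer cells that express a gene and less RNA of it per cell cannot be told apart.

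Ighm made up most of the heavy constant counts in every library. Its share of them was 73.4% and 73.6% in the naive libraries, 83.5% and 80.4% in those of 3 h, 83.0% and 81.3% in those of 10 h, and 93.9% and 97.1% in those of 33 h. It was 87.4% and 85.7% for expanded B cells and 91.9% and 88.6% for plasmablasts. At 33 h, where the share of Ighm was highest, that of Ighd was below its 10 h values and the gamma genes had not yet passed 0.507%.

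Ighd held 26.4% and 26.2% of the heavy constant counts in the naive libraries, 16.4% and 19.5% in those of 3 h, 16.6% and 18.4% in those of 10 h, and 5.60% and 2.35% in those of 33 h. In expanded B cells it held 0.0933% and 0.0922%, and in plasmablasts 0.00315% (95% Wilson interval 0.00246% to 0.00403%) and 0.00519% (0.00432% to 0.00624%). These intervals cover counting error only. The 4 gamma genes together held 0.0986% and 0.112% in the naive libraries, 0.0635% and 0.0926% in those of 3 h, 0.339% and 0.293% in those of 10 h, and 0.429% and 0.507% in those of 33 h. They then held 12.5% and 14.2% for expanded B cells and 8.09% and 11.4% for plasmablasts. Both expanded libraries lay above both plasmablast libraries in this share.

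**Figure D1:**
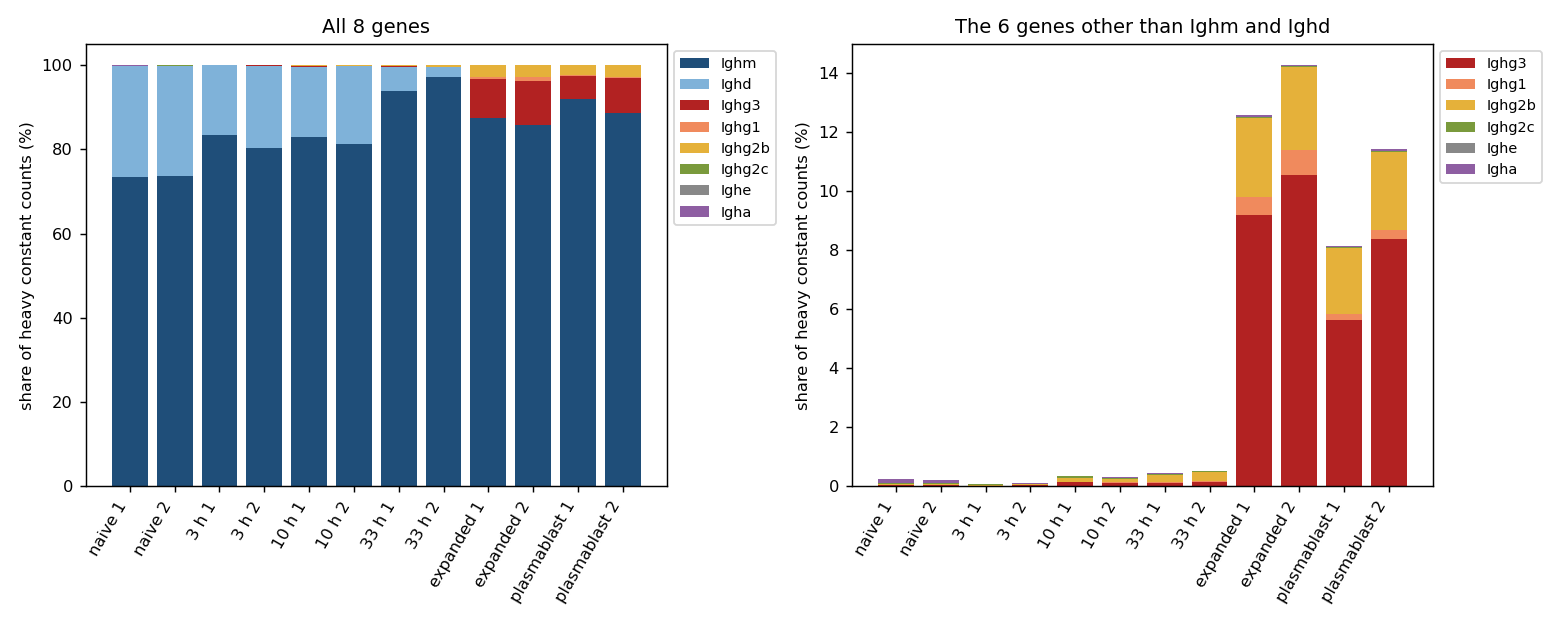
Share of the heavy constant counts held by each of the 8 genes, in percent, in the 12 libraries; the left panel shows all 8 genes stacked and the right panel the 6 genes other than Ighm and Ighd on an expanded axis. The light blue Ighd bars shrink from 26.4% and 26.2% in naive cells to a sliver after 33 h, and the red Ighg3 and yellow Ighg2b bars appear in expanded B cells and plasmablasts.

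Ighg3 made up most of the gamma counts on day 4 but not before. Its share of the gamma counts was 73.5% and 74.1% for expanded B cells and 69.6% and 73.8% for plasmablasts, against 21.1% to 41.7% in the 8 earlier libraries. Ighg2b held 33.5% to 60.9% of the gamma counts in those earlier libraries, and 21.6% and 19.8% in expanded B cells. The earlier shares rest on far fewer counts. At 3 h there were 19 and 62 counts of Ighg3 and 49 and 84 of Ighg2b, against 76207 and 88175 of Ighg3 in expanded B cells. Counts per base gave an Ighg3 to Ighg2b ratio of 0.470 and 0.536 for 33 h, 3.46 and 3.81 for expanded B cells and 2.57 and 3.22 for plasmablasts. Ighg1 held 0.580% and 0.837% of the heavy constant counts in expanded B cells against 0.190% and 0.298% in plasmablasts, with no overlap. Ighg2c held 0.0271% to 0.0333% in the 33 h, expanded and plasmablast libraries.

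Levels are given as RPKM, counts divided by the table's gene length and by the library's TMM-scaled total of kept counts. Changes between stages are log2 fold changes ± SE with n = 2 libraries per stage, and a gene is called differentially expressed (DE) where the change exceeds 1.5-fold at an adjusted p below 0.05. Adjusted p-values are from edgeR's glmTreat with Benjamini-Hochberg adjustment over 12767 genes.

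Ighm, whose product is the heavy chain of IgM, was at 5403 and 5505 RPKM in the naive libraries, 4426 and 3593 in those of 3 h, 4006 and 4235 in those of 10 h, and 5370 and 6891 in those of 33 h. It reached 12150 and 14399 RPKM for expanded B cells and 52068 and 45941 for plasmablasts, where it ranked 3 among all genes by RPKM in both libraries. Plasmablasts were highest and expanded B cells next, without overlap, while the 33 h and naive libraries overlapped, as did those of 10 h and 3 h. Ighm rose by 1.11 ± 0.13 on the log2 scale from 33 h to expanded B cells (edgeR adjusted p = 0.00245) and by 1.88 ± 0.13 from there to plasmablasts (adjusted p = 1.33e-06). It was not DE at the earlier steps, where its log2 changes were -0.44 ± 0.13, 0.04 ± 0.13 and 0.57 ± 0.13.

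Ighd, the heavy chain of IgD, moved the other way. It was at 2877 and 2893 RPKM in the naive libraries, 1288 and 1291 in those of 3 h, 1185 and 1416 in those of 10 h, and 474 and 246 in those of 33 h. It was at 19.2 and 22.9 RPKM for expanded B cells and 2.64 and 3.98 for plasmablasts, from 63 and 114 counts. Apart from 3 h and 10 h, which overlapped, every stage lay below the one before it. Ighd fell by 1.16 ± 0.25 on the log2 scale from naive to 3 h (edgeR adjusted p = 0.0158), and fell by 1.85 ± 0.25 from 10 h to 33 h (adjusted p = 0.00161), a call that a fit to only the 4 libraries compared did not make (adjusted p = 0.0529). It fell by 4.10 ± 0.29 from 33 h to expanded B cells (adjusted p = 1.09e-05) and fell by 2.65 ± 0.33 from there to plasmablasts (adjusted p = 0.00025). Between 3 h and 10 h the change was 0.01 ± 0.25. The call at 3 h was lost without either 3 h library (adjusted p = 0.118 and 0.10), and the 2 libraries at 33 h differed by a larger factor than those of any earlier stage.

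**Figure D2:**
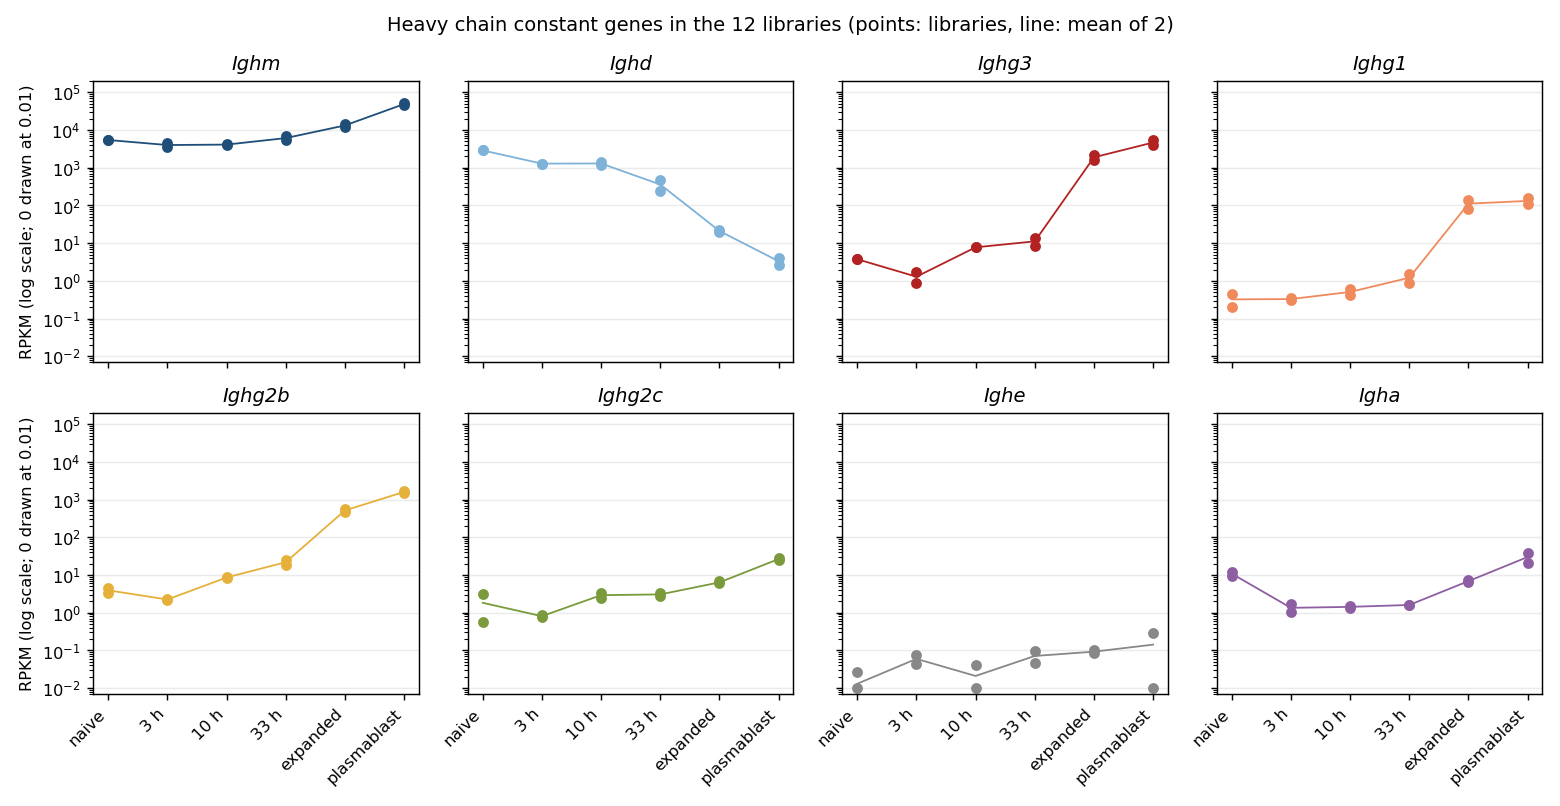
Level of the 8 heavy constant genes in RPKM on a log axis, with a panel per gene, a point per library and a line through the mean of 2; values of 0 are drawn at 0.01. Ighm climbs to 52068 and 45941 RPKM in plasmablasts while Ighd drops to 2.64 and 3.98, and Ighg3, Ighg1 and Ighg2b jump between 33 h and expanded B cells.

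The ratio of Ighd to Ighm, in counts per base, was 0.533 and 0.525 in the naive libraries, 0.291 and 0.359 in those of 3 h, 0.296 and 0.334 in those of 10 h, and 0.0882 and 0.0357 in those of 33 h. It was 0.00158 and 0.00159 in expanded B cells. In plasmablasts Ighm exceeded Ighd by 19702-fold and 11530-fold in counts per base. Zfp318, the factor needed for the long transcript to read through to Ighd, was at 36.5 and 38.1 RPKM in the naive libraries, 37.5 and 27.9 in those of 3 h, 7.37 and 8.20 in those of 10 h, and 10.1 and 5.88 in those of 33 h. It was at 1.51 and 1.53 RPKM for expanded B cells and 0.584 and 0.588 for plasmablasts.

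The steps of Zfp318 and Ighd were not all the same. From naive to 3 h the log2 change of Zfp318 was -0.19 ± 0.20 (edgeR adjusted p = 1), at the step where Ighd was called down. From 3 h to 10 h Zfp318 fell by 2.07 ± 0.21 (adjusted p = 3.94e-05), where Ighd changed by 0.01 ± 0.25. From 10 h to 33 h Zfp318 changed by 0.04 ± 0.20 (adjusted p = 1), where Ighd was called down. From 33 h to expanded B cells it fell by 2.40 ± 0.22 (adjusted p = 5.2e-05), and from there to plasmablasts it fell by 1.37 ± 0.25 (adjusted p = 0.00702), both steps at which Ighd also fell.

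**Figure D3:**
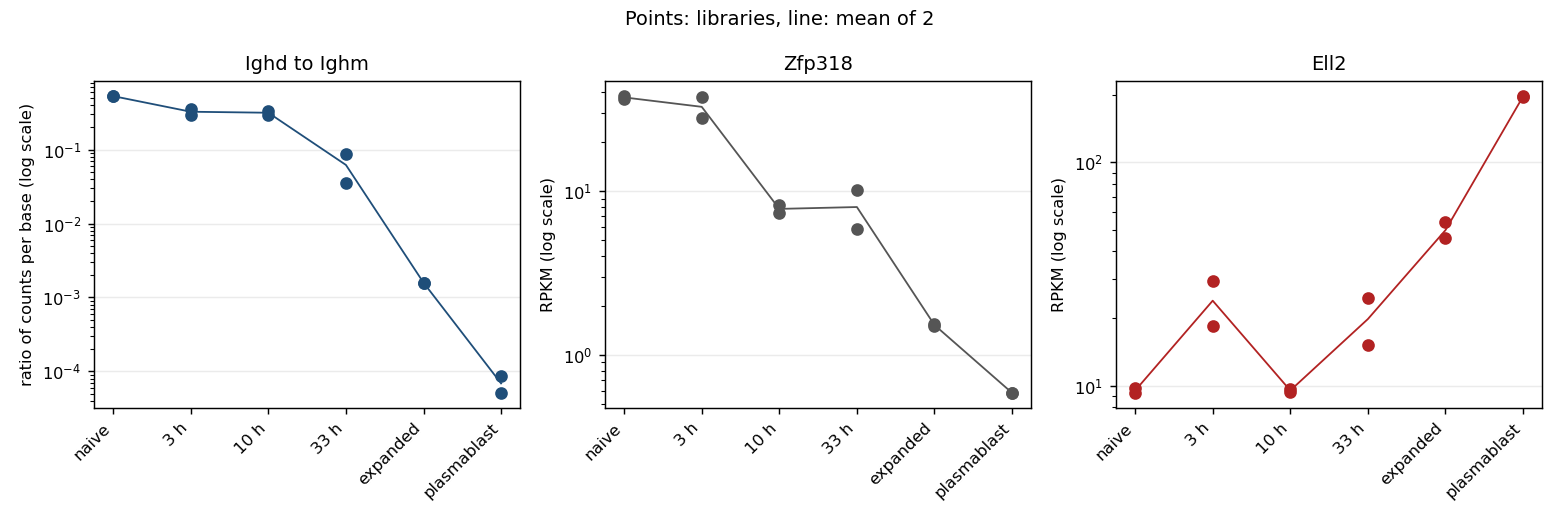
Ratio of Ighd to Ighm in counts per base, and levels of Zfp318 and Ell2 in RPKM, by stage on log axes, with a point per library and a line through the mean of 2. The ratio falls from 0.533 and 0.525 in naive cells to 0.00158 and 0.00159 in expanded B cells, Zfp318 drops between 3 h and 10 h, and Ell2 is highest in plasmablasts, at 196 and 198 RPKM.

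Ighg3, the heavy chain of IgG3, was at 3.76 and 3.74 RPKM in the naive libraries, 0.882 and 1.70 in those of 3 h, 7.70 and 7.82 in those of 10 h, and 8.56 and 13.8 in those of 33 h. It was at 1588 and 2200 RPKM for expanded B cells and 3966 and 5395 for plasmablasts, where it ranked 29 and 23 among all genes. No neighbouring stages in the order of its levels overlapped. Ighg3 fell by 1.45 ± 0.39 on the log2 scale from naive to 3 h (edgeR adjusted p = 0.0249), from 153 and 116 counts to 19 and 62, a call that was lost without either 3 h library (adjusted p = 0.244 and 0.0858). It rose by 2.50 ± 0.35 from 3 h to 10 h (adjusted p = 0.000516), in cells sorted as undivided, and by 7.42 ± 0.30, or 171-fold, from 33 h to expanded B cells (adjusted p = 1.19e-07). From expanded B cells to plasmablasts it rose by 1.31 ± 0.23 (adjusted p = 0.00661), but was not called without expanded replicate 1 (adjusted p = 0.0658) or without plasmablast replicate 2 (adjusted p = 0.0554), nor with library sizes left unscaled (adjusted p = 0.054).

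Ighg2b, the heavy chain of IgG2b, was at 4.47 and 3.43 RPKM in the naive libraries, 2.24 and 2.26 in those of 3 h, 8.88 and 8.37 in those of 10 h, and 18.2 and 25.7 in those of 33 h. It was at 459 and 578 RPKM for expanded B cells and 1544 and 1674 for plasmablasts. The 3 h values rest on 49 and 84 counts. As with Ighg3, no neighbouring stages overlapped, and Ighg2b rose at every step after 3 h. The log2 changes were 1.94 ± 0.21 to 10 h (edgeR adjusted p = 6.77e-05), 1.34 ± 0.16 to 33 h (adjusted p = 0.00088), 4.57 ± 0.17 to expanded B cells (adjusted p = 2.2e-08) and 1.63 ± 0.15 to plasmablasts (adjusted p = 2.83e-05).

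Ighg1, the heavy chain of IgG1, an isotype better known from responses with interleukin-4, had 8 to 80 counts in the libraries up to 33 h, or 0.200 to 1.54 RPKM. It was at 81.5 and 142 RPKM in expanded B cells, from 4810 and 6998 counts, and at 108 and 156 RPKM in plasmablasts, from 3792 and 6537 counts. Its rise from 33 h to expanded B cells was 6.59 ± 0.37 on the log2 scale, or 96.1-fold (edgeR adjusted p = 1.91e-06). The expanded and plasmablast libraries overlapped, and the log2 change between them was 0.24 ± 0.27 (adjusted p = 1), with a negative sign where library sizes were left unscaled (-0.10) or without expanded replicate 1 (-0.11) or plasmablast replicate 2 (-0.02). Ighg1 was thus called up with Ighg3 and Ighg2b at the step to expanded B cells, but not at the step to plasmablasts. Whether that step differed between the genes was not tested.

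Ighg2c, the heavy chain of IgG2c, was at 0.557 and 3.12 RPKM in the naive libraries, 0.775 and 0.848 in those of 3 h, 3.36 and 2.49 in those of 10 h, and 2.71 and 3.43 in those of 33 h. The naive values rest on 19 and 81 counts. It was at 6.04 and 6.76 RPKM for expanded B cells and 28.0 and 25.3 for plasmablasts, from 666 and 722 counts. Its only call between consecutive stages was the rise of 2.06 ± 0.40 on the log2 scale from expanded B cells to plasmablasts (edgeR adjusted p = 0.00503), which was not called without expanded replicate 1 (adjusted p = 0.0516). The change of 1.84 ± 0.58 from 3 h to 10 h missed the threshold in the reported fit (adjusted p = 0.0522). It was called with library sizes left unscaled (edgeR adjusted p = 0.0164) and with DESeq2's Wald test (adjusted p = 0.018). Fitting only the 4 libraries compared also called it (edgeR adjusted p = 0.0111), but using DESeq2's size factors did not. From 33 h to expanded B cells the change was 1.07 ± 0.42 (adjusted p = 0.343). That was called with no filter on low counts (adjusted p = 0.0319) and with only the 4 libraries (adjusted p = 0.0295). The naive libraries of Ighg2c differed by a larger factor than those of any other tested member, and the log2 change to 3 h, -1.09 ± 0.63, was 0.56 without naive replicate 2.

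Summing the 4 gamma genes before the fit, a choice made after the data were seen, leaves out the question of which gamma gene a read belongs to. The sum fell by 1.03 ± 0.25 on the log2 scale from naive to 3 h (edgeR adjusted p = 0.0328), rose by 2.05 ± 0.24 to 10 h (adjusted p = 0.000123), and changed by 0.93 ± 0.20 to 33 h (adjusted p = 0.094). It rose by 6.10 ± 0.24 to expanded B cells (adjusted p = 4.8e-08) and by 1.34 ± 0.19 to plasmablasts (adjusted p = 0.00173).

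Igha, the heavy chain of IgA, was the third member by level in naive cells, at 12.1 and 9.68 RPKM. The 3 h libraries gave 1.68 and 1.02 RPKM, those of 10 h 1.36 and 1.51, and those of 33 h 1.59 and 1.63, from 37 to 113 counts. It was at 7.21 and 6.63 RPKM for expanded B cells and 21.4 and 38.9 for plasmablasts. Naive cells thus lay between plasmablasts and expanded B cells in its order, a place that no other member had. Igha fell by 3.07 ± 0.31 on the log2 scale from naive to 3 h (edgeR adjusted p = 5.38e-06), rose by 2.10 ± 0.28 from 33 h to expanded B cells (adjusted p = 0.000638), and rose by 2.12 ± 0.25 from there to plasmablasts (adjusted p = 7.73e-05).

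Myeloid and erythroid markers were highest, as sums, in the naive libraries. The summed level of 8 myeloid markers was 276 and 122 CPM (counts scaled to the total of the library) in naive cells and 0.341 to 37.5 CPM in the other libraries. All 8 were called down from naive to 3 h, where 24.3% of all genes tested fell. The summed level of 5 erythroid markers found in the table was 196 and 146 CPM against 0.347 to 2.11 CPM. None of these markers was at 0 in a naive library, whereas up to 6 of the myeloid and 4 of the erythroid markers were at 0 in others. Single markers departed from the sums, and those given here were named after their values were seen. Itgam, an integrin chain of myeloid cells, was at 2.11 and 1.26 RPKM in naive cells and 5.43 and 4.91 in expanded B cells. The myeloid sum of 37.5 and 35.3 CPM in expanded B cells came mostly from Itgam, with 1016 and 767 counts, and Adgre1, with 548 and 470, while Lyz2, S100a8, S100a9 and Mpo were at 0 in both libraries.

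The 8 T cell markers summed to 63.2 and 67.7 CPM in naive cells against 13.9 to 38.8 CPM in the other libraries, where up to 5 of the 8 markers were at 0. Most of the naive sum was Lck, a kinase of T cell receptor signalling, with 2291 and 1916 counts. From naive to 3 h 5 of the 7 tested T cell markers were called down, against 24.3% of all genes tested. Trac, the constant gene of the T cell receptor alpha chain, instead rose from 0.414 and 0.544 RPKM to 2.11 and 1.38. It was at 9.67 and 7.33 in plasmablasts. Cd3g was at 0.433 and 0.455 RPKM in naive cells and 1.36 and 0.930 in plasmablasts.

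The 6 plasma cell markers summed to 586 and 544 CPM in naive cells, 2741 and 2144 in the 3 h libraries and 22639 and 22189 in plasmablasts. From naive to 3 h 2 of them rose and 1 fell, near the 21% and 24.3% of all genes tested. Irf4 rose by 3.53 ± 0.18 on the log2 scale, Prdm1 rose from 0.603 and 0.475 RPKM to 1.40 and 1.66, and Mzb1 fell by 1.66 ± 0.15 on the log2 scale. Sdc1, which encodes the plasma cell marker CD138, was at 8.54 and 7.72 RPKM in naive cells and 8.30 and 4.93 at 3 h, a log2 change of -0.32 ± 0.21 that was not called. The 6 B cell markers were above 0 in every library, with sums of 10010 and 9671 CPM in naive cells and 2045 to 5177 CPM in the others. The part of any of these in the falls of Ighd, Ighg3 and Igha at 3 h was not tested, and the naive stage also differed from the cultured stages in how cells were isolated, which cannot be told apart from activation.

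Ighe, the heavy chain of IgE, had 0 and 1 counts in the naive libraries, 2 and 2 in those of 3 h, 3 and 0 in those of 10 h, and 4 and 5 in those of 33 h. Expanded B cells gave 5 and 5 counts and plasmablasts 0 and 12. A count of 0 allows up to 3, which is a share of the heavy constant counts of up to 0.000806% in naive replicate 1, 0.00102% in 10 h replicate 2 and 0.00015% in plasmablast replicate 1. The highest share was 0.00141% in 3 h replicate 1, from 2 counts. Ighe was not tested in the fit to all 12 libraries. From naive cells to plasmablasts it entered the test, and was called, without plasmablast replicate 1, so that this rests on the 12 counts of replicate 2. Per length, the order of the members in plasmablasts was Ighm, Ighg3, Ighg2b, Ighg1, Igha, Ighg2c, Ighd and Ighe, in which Igha and Ighg2c overlapped, whereas in naive cells Ighm and Ighd were followed at a distance by Igha, Ighg2b, Ighg3, Ighg2c, Ighg1 and Ighe, in which Ighg2b and Ighg3 overlapped.

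At the steps up to 33 h few members were called, too few to set apart from the shares of all genes. From naive to 3 h, 0 of the 7 tested members were called up and 3 down, where 21% of all genes tested were called up and 24.3% down. As given above, the falls of Ighd and Ighg3 were not called without either 3 h library. The step from naive to 3 h changed more of all genes than any later one. From 3 h to 10 h, 2 rose and 0 fell, against 17.4% and 13.4% of all genes. From 10 h to 33 h, 1 rose and 1 fell, against 10.1% and 4.45%.

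The steps to the day 4 stages held more calls among the members. From 33 h to expanded B cells 5 of 7 members rose and 1 fell, against 7% and 3.67% of all genes tested, and the median log2 change of the members was 2.10 against -0.02 over all genes. From expanded B cells to plasmablasts again 5 rose and 1 fell, against 14% and 12.2%, with a median of 1.63 against -0.05. The 5 that rose were Ighm, Ighg3, Ighg1, Ighg2b and Igha at the former step, and Ighm, Ighg3, Ighg2b, Ighg2c and Igha at the latter.

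Over the whole course from naive cells to plasmablasts 6 members rose and 1 fell, against 26.6% and 23.4% of all genes. The log2 changes were 3.17 ± 0.14 for Ighm (8.98-fold), 10.28 ± 0.34 for Ighg3, 8.73 ± 0.45 for Ighg1, 8.66 ± 0.21 for Ighg2b, 3.93 ± 0.47 for Ighg2c and 1.47 ± 0.24 for Igha. Ighd fell by 9.75 ± 0.38 on this scale, or 860-fold. All 7 had an edgeR adjusted p of at most 0.00105, although a fit to only the 4 libraries compared did not call Ighg2c (adjusted p = 0.0574) or Igha (adjusted p = 0.158).

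**Figure D4:**
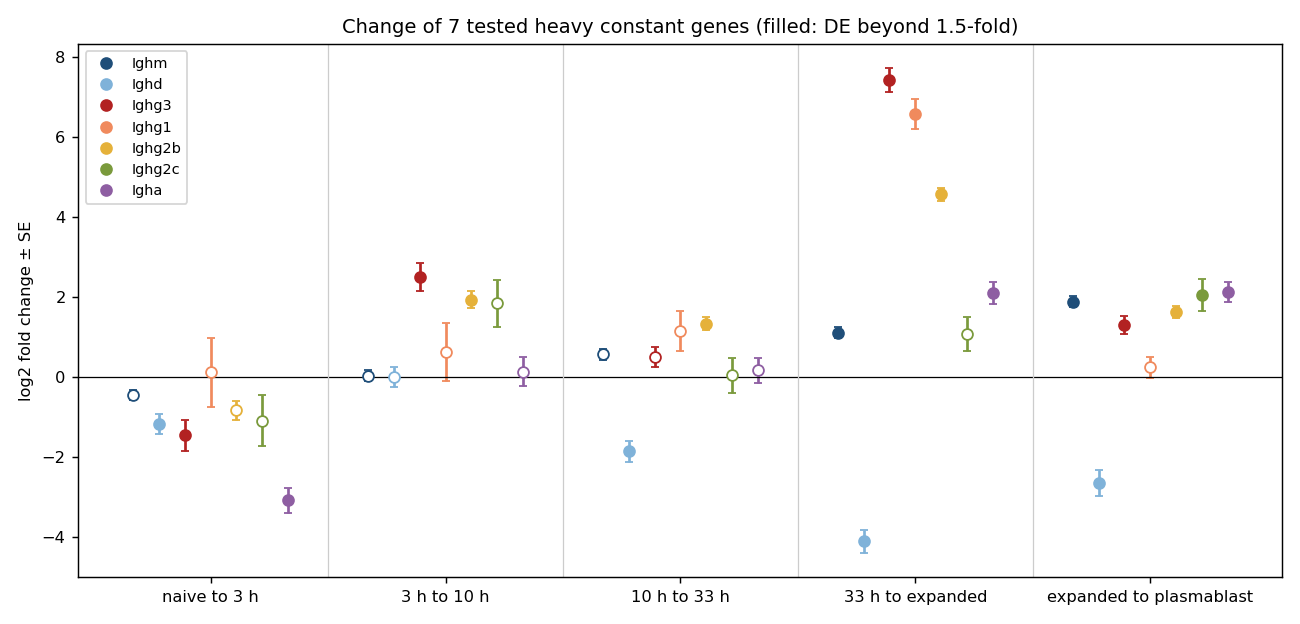
Log2 fold change ± SE of the 7 tested heavy constant genes at each of the 5 consecutive steps, with filled points for genes called DE beyond 1.5-fold. The widest spread is from 33 h to expanded B cells, between 7.42 for Ighg3 and -4.10 for Ighd, and Ighg1 is the open point near 0 at the last step.

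At the day 4 steps most genes of class switch recombination were not called, as was true of all genes tested. Of 25 such genes, all tested, 1 rose and 0 fell from 33 h to expanded B cells, against 7% and 3.67% of all genes, with a median log2 change of -0.38 against -0.02 over all genes. From expanded B cells to plasmablasts 0 rose and 6 fell, against 14% and 12.2%, with a median of -0.32 against -0.05. The gene that rose to expanded B cells was Lig4, a ligase of end joining (1.52 ± 0.13), which is named here after its values were seen. Apex1, an endonuclease of base excision repair, fell by 1.59 ± 0.11 on the log2 scale at the step to plasmablasts, and Atm, a kinase of the DNA break response, fell by 1.40 ± 0.15. Nfkbid, an NF-kappaB regulator, fell by 1.21 ± 0.23, Batf, a transcription factor, fell by 0.94 ± 0.09, and Ung, the glycosylase that removes uracil, fell by 0.93 ± 0.10. Trp53bp1, a protein of the DNA break response, fell by 0.80 ± 0.09.

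Genes that act on the heavy chain transcript were mixed. Of 10 such genes, 9 of them tested, 3 rose and 1 fell at each of the steps to expanded B cells and to plasmablasts, with median log2 changes of 0.23 and -0.36. Of all genes 7% rose and 3.67% fell at the former step, and 14% and 12.2% at the latter. The gene that fell at both was Zfp318. Ell2, an elongation factor known to favour the secreted form of Ighm, was at 9.76 and 9.27 RPKM for naive cells, 45.6 and 53.8 for expanded B cells and 196 and 198 for plasmablasts. It rose by 1.32 ± 0.23 on the log2 scale to expanded B cells (edgeR adjusted p = 0.0129) and by 1.99 ± 0.23 to plasmablasts (adjusted p = 0.000165). Eaf2, whose product binds ELL proteins, rose by 1.67 ± 0.21 and 2.83 ± 0.21 at the same steps. The third that rose at both was Hnrnpll, an RNA-binding protein (1.46 ± 0.27 and 1.68 ± 0.25), also named after its values were seen.

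Among the chains and helpers that heavy chains assemble with, all calls at the day 4 steps were upward. Of 8 partner genes, 4 rose and 0 fell from 33 h to expanded B cells, against 7% and 3.67% of all genes, with a median log2 change of 0.93. From there to plasmablasts 6 rose and 0 fell, against 14% and 12.2%, with a median of 1.89. Cd79a and Cd79b, the B cell receptor partners on the list, were called at neither step and are named after their values were seen. At the step to plasmablasts their log2 changes were -0.50 ± 0.09 and -0.07 ± 0.11. From naive cells to plasmablasts both were called down, by 1.67 ± 0.10 and 1.52 ± 0.12, where 23.4% of all genes fell. Igkc, the kappa light chain constant gene, was at 9032 and 9650 RPKM for naive cells, 19644 and 25723 for expanded B cells and 161931 and 178868 for plasmablasts. It rose by 1.54 ± 0.14 and 2.91 ± 0.15 on the log2 scale (edgeR adjusted p = 0.000114 and 4.85e-08), and Ighm by 1.11 ± 0.13 and 1.88 ± 0.13.

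Jchain, which links IgM and IgA into polymers, was at 290 and 371 RPKM for expanded B cells and 8203 and 7770 for plasmablasts, a rise of 4.60 ± 0.35 on the log2 scale (edgeR adjusted p = 4.2e-06). Mzb1, a chaperone of IgM assembly, rose by 2.39 ± 0.15 at the step to plasmablasts. The lambda constant genes Iglc1, Iglc2 and Iglc3 rose by 1.82 ± 0.10, 1.97 ± 0.10 and 1.68 ± 0.12.

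The genes most like a member were found by Pearson's r of log2 RPKM over the 12 libraries, among the 5616 tested genes whose average log2 CPM reached 5. The libraries fall into 6 stages, so these correlations are a description. For Ighm they were Txndc11, Dnajc3 and Pon2, with r of 0.993, 0.993 and 0.991. For Ighd they were Zbtb18, Scaper and Fcrl1, with r of 0.988, 0.987 and 0.986. For Ighg3 they were Tmed6, Atp8b2 and Tmem189, with r of 0.985, 0.985 and 0.977.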

How the data were processed

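Libraries were made by the authors from poly(A) RNA with a TruSeq kit, sequenced as 81 bp paired reads on a NextSeq 500, aligned to mm10 with Rsubread and counted with featureCounts on its inbuilt Entrez annotation. The submitters' notes also name CASAVA 1.8.2. The deposited values are raw counts per gene with gene lengths, without normalization or filter. How reads mapping to several places, strand and read pairs were counted is not given in the sources used here. RPKM, percent shares and log2 fold changes were computed here.

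Of 27179 identifiers, 25275 matched RefSeq names. The 1904 unmatched IDs, 33 ribosomal RNA, 1279 X and Y chromosome, 15 mitochondrial and 226 variable segment genes were removed, after the study's methods. All 8 members stayed. filterByExpr kept 12767 genes. edgeR 4.0.16 in R 4.3.3 (limma 3.58.1) was used with TMM scaling, robust quasi-likelihood dispersions and a single layout of all 12 libraries. glmTreat tested changes beyond 1.5-fold at an adjusted p of 0.05. The SE is the log2 fold change divided by the square root of the F statistic. The test was tried on simulated data in which 200 of 12565 genes were made to differ between the expanded and plasmablast stages. It found 77% of them and made 1 false call. Every planted change was larger than 1.5-fold, and the other genes were given no change, unlike in the data. The 1 false call is therefore not an error rate for these data.

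Shares have 95% Wilson intervals (scipy 1.17.1), which cover counting error only. Sequences were compared with Biopython 1.88. DESeq2 1.42.0 size factors and Wald test, other filters and modes, a replicate block, subsets of libraries and leaving out each library were tried, as were shares from counts per base and from summed libraries. Members and gene lists were chosen with earlier results of these data known. All 8 members are named. Of the list genes, those whose average log2 CPM reached 5 and that were called at a day 4 step are named, at most 6 a list, with Zfp318, Ell2, Jchain and Igkc. A gene of the class switch list is not reported here and was left out of its counts. The p-values rest on a spread between replicates that was estimated over all 12 libraries and shared across stages and genes. They do not measure the spread within the compared stages alone, and several calls were lost in fits to only those 4 libraries. The Hi-C data of the study were not analysed here.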

Additional observations from a re-analysis of the deposited data

How the results depend on the processing

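The number of members called was 3 from naive to 3 h, but 5 with DESeq2's Wald test, with edgeR's F-test without a fold threshold and with no filter on low counts, and 1 to 4 on leaving out each library in turn. From 10 h to 33 h it was 2, but 4 with the Wald test and 1 in a fit to only the 4 libraries compared, which did not call Ighd (adjusted p = 0.0529). At the other steps the number stayed within 1.5 times of that reported. Leaving out a library gave 4 to 6 from expanded B cells to plasmablasts and 7 to 8 from naive cells to plasmablasts, where Ighe entered the test and was called without plasmablast replicate 1, which had 0 counts of it.

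Of the log2 changes, 589 values under an alternative kept their direction and their side of the threshold, 13 lost a call, 28 gained one and 18 turned in sign. Ighg3 from expanded B cells to plasmablasts was not called in a fit to only the 4 libraries (adjusted p = 0.129). All values that turned were of changes that were not called in the reported fit. Ighm from 3 h to 10 h was -0.0388 with DESeq2's size factors and -0.0388 with its Wald test, and Ighd -0.0654 and -0.0654. With library size alone, Ighg1 was -0.0807 from naive to 3 h and -0.0963 from expanded B cells to plasmablasts, and Ighg2c was -0.0134 from 10 h to 33 h. For the 4 gamma genes summed the value set beside Ighg1 from naive to 3 h was -1.03. Leaving out a library in turn gave -0.41 to 0.74 for Ighg1 and -1.93 to 0.56 for Ighg2c from naive to 3 h, then -0.10 to 0.20 for Ighm, -0.12 to 0.14 for Ighd and -0.23 to 0.49 for Igha from 3 h to 10 h. It gave -0.14 to 0.29 for Ighg2c from 10 h to 33 h and -0.11 to 0.69 for Ighg1 from expanded B cells to plasmablasts. The cause was not tested.

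Library size alone moved the median log2 change of all genes by -0.21 from naive to 3 h, 0.33 to 10 h, -0.34 from expanded B cells to plasmablasts and -0.28 over the whole course. All genes called up and down were then 2092 and 3724, 3434 and 1004, 1189 and 2961, and 2740 and 3886. Replicate numbers did not pair the libraries over all stages: the deviations of same-numbered libraries correlated by -0.34 to 0.41, and by more than 0.1 in only 3 of 15 pairs of stages. The highest value was between expanded B cells and plasmablasts, in both of which replicate 2 had the higher share of gamma counts, so a pairing of these stages is possible, although the labels name none. With the replicate block, Ighg2c from 3 h to 10 h was called (1.89, adjusted p = 0.045), and no other member changed its call.

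In counts per base the share of Ighm was 65.2% in naive cells, 75.4% for 3 h, 75.8% for 10 h and 83.9% among expanded B cells. Leaving out a library gave 73.4% to 73.6%, 80.4% to 83.5%, 81.3% to 83.0%, 93.9% to 97.1%, 85.7% to 87.4% and 88.6% to 91.9% over the 6 stages in order. Of the counts left after removing genes, the heavy constant genes took 1.14% in naive cells, 0.647% at 3 h, 0.838% at 10 h and 6.85% in plasmablasts. With 2 libraries a stage, SDs are uncertain, and members with under 100 counts in a library have wide errors. Before day 4 this held for Ighg1 in every library and for Ighg2c and Igha in some. At 3 h it also held for Ighg3, with 19 and 62 counts, and Ighg2b, with 49 and 84.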
